A study of Mus musculus with 4 samples.

Results

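The genes described here are 44 regulators of apoptosis, targets of the p53 protein and Gadd45 genes, listed by name and not chosen by their measured values, although earlier results of these data were known when the list was drawn up. A gene was read from the probe sets whose annotation names it alone, and where there were several the one with the highest mean over the arrays stood for the gene. In this way 40 of the 44 members were measured, out of 18193 genes on the array. All 40 passed the filter on dim probe sets, as did 12547 genes in all. Bnip3l was left out because its probe sets also name a pseudogene, and Bax, Ripk1 and Trp53 itself were not analysed here. The samples were naive T cells taken from mouse spleen, wild type (WT) or knockout (KO), and then cultured for 3 days in conditions that induce regulatory T (Treg) cells. There were 2 WT and 2 KO samples, each on a single-colour Affymetrix array and with a mouse source numbered 1 or 2 within its genotype. The labels name neither the gene removed in the KO nor the strain, age or culture additives, so the targeted gene could not be checked, and both genotypes went through the same culture. Nothing says that the 2 samples of a genotype came from separate cultures, so the spread behind the p-values may be technical in part.

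Apoptosis of T cells is decided largely at the mitochondrion. Anti-apoptotic proteins of the Bcl2 family hold the pore-forming proteins Bax and Bak in check, BH3-only proteins such as Bim and Puma release them, and the cytochrome c that escapes lets Apaf1 activate caspase-9. Death receptors reach the caspases by another route, through the adaptor Fadd and caspase-8. The transcription factor p53, restrained by Mdm2 and Mdm4, induces BH3-only genes, sestrins and cell cycle inhibitors after DNA damage, and the Gadd45 proteins are small stress sensors that can switch on the p38 and Jnk kinases. Contraction of T cell responses and the survival of Treg cells depend strongly on Bim and Mcl1.

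In KO cells 10 of the 40 measured members rose and 7 fell, while 23 did not pass the test (limma, adjusted p below 0.05 over all 27022 tested probe sets). The rises were those of Casp4, Casp1, Gadd45g, Bcl2l2, Perp, Pmaip1, Bmf, Casp6, Sesn2 and Gadd45b, in order of size. The falls were those of Sesn1, Bbc3, Zmat3, Mdm4, Casp2, Ei24 and Bcl2l11. Thus 42.5% of the members were called, against 20.3% of all tested genes, 25% against 10.5% in the upward direction and 17.5% against 9.87% in the downward one. The median log2 fold change of the members was -0.07 and that of all tested genes -0.03, while the median size regardless of sign was 0.41 and 0.31. On that scale 11 of the 40 members moved by more than 1, against 10.4% of all tested genes. The groups did not overlap for 30 of the 40 members, or 75%, and for 62.7% of all tested genes. Rises and falls were thus both present, and the median lay near 0. In bulk samples such as these, a change in the share of cells that express a gene and a change in its RNA per cell cannot be told apart. Without the dependence of variance on intensity in the fit, 5 members were called higher (Casp1, Casp4, Gadd45g, Pmaip1 and Bcl2l2) and 1 lower (Zmat3), against 5.19% of all tested genes.

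**Figure D1:**
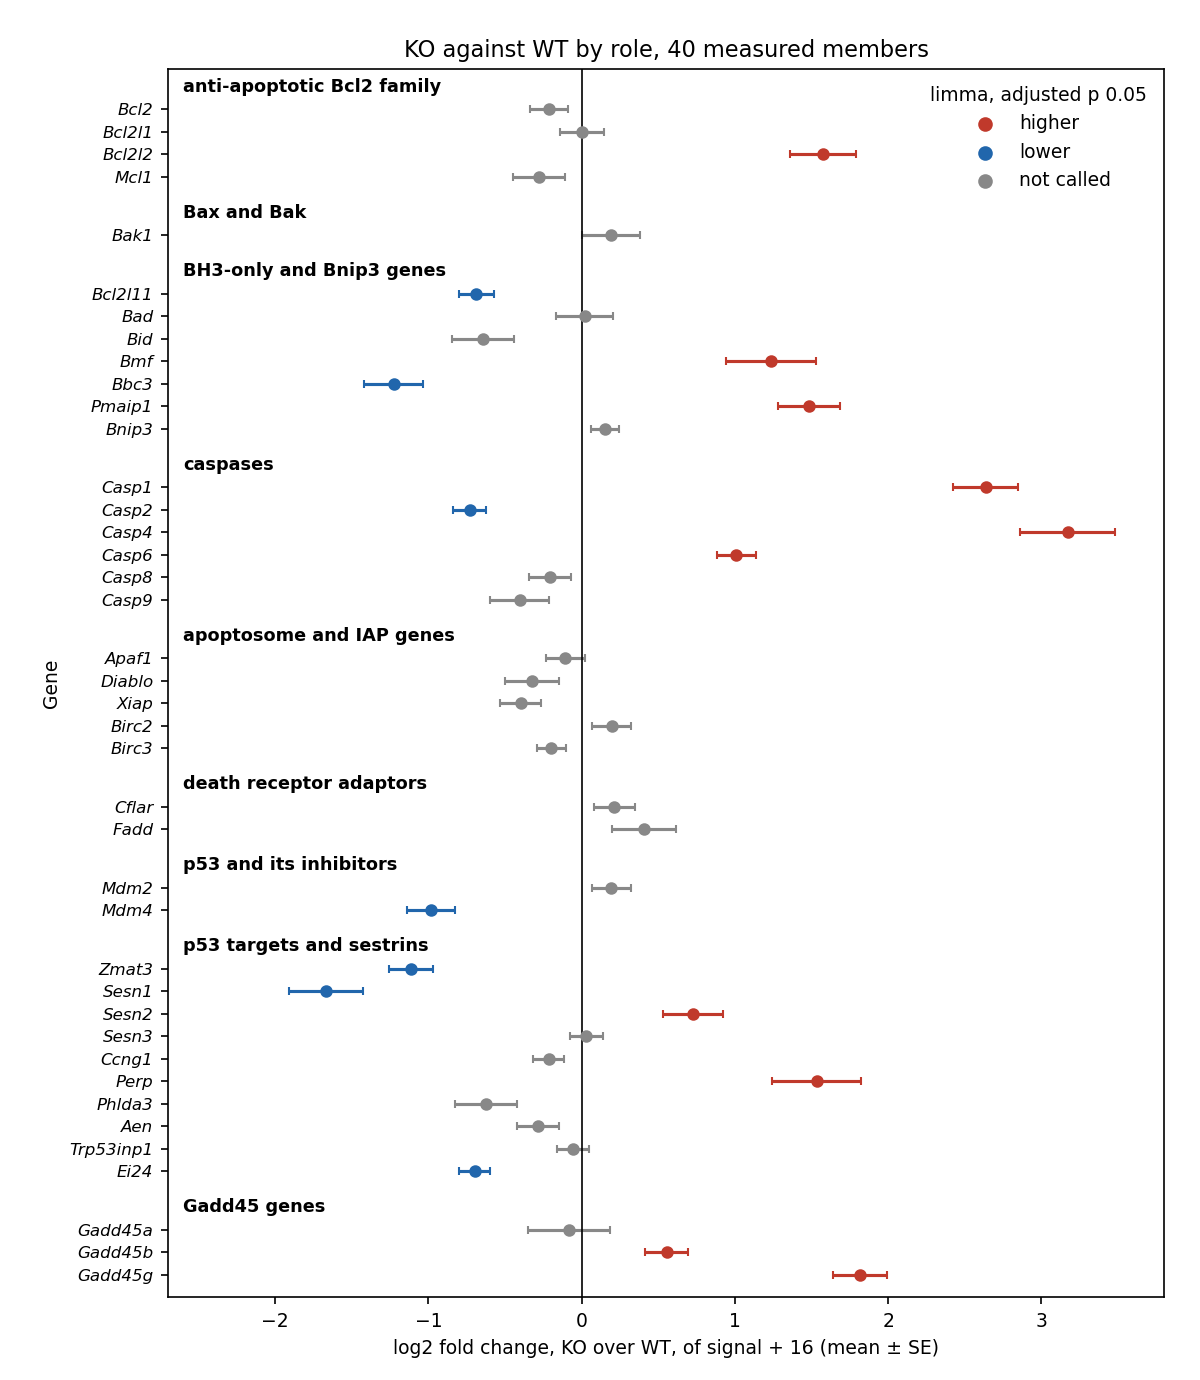
Log2 fold change of KO over WT, computed on signal + 16, for the 40 measured members grouped by role, with points for the estimate of the fit and bars for its SE (2 WT and 2 KO arrays). Colours give the call, and every group with more than 5 measured members holds both rises and falls.

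Among the anti-apoptotic genes of the Bcl2 family, Bcl2l2, which encodes Bcl-w, rose, and the other 3 did not pass by their brightest probe sets. Bcl2l2 had signals of 229.5 and 159.9 on the WT arrays and of 574 and 631 on the KO arrays. The groups lay well apart, and the signal was 2.97-fold higher in KO cells on the log2(signal + 16) scale (log2 fold change 1.57 ± 0.22 SE, limma adjusted p = 0.00187). 2 dimmer probe sets of the gene were also higher, at 1.23 and 0.80, without passing. Bcl2 itself, the founding survival gene of the family, read 9131 and 9395 in WT and 9034 and 7060.4 in KO cells. The KO arrays thus differed from each other by more than KO array 1 did from the WT arrays, and the log2 fold change was -0.21 ± 0.12. Bcl2l1, which encodes Bcl-xL, read 1276 and 1299.8 in WT and 1147 and 1449 in KO cells, so that the KO arrays enclosed the WT arrays, with a log2 fold change of 0.001 ± 0.145. Mcl1, whose short-lived product T cells need at most stages, read 16131 and 18515 in WT and 11690.5 and 17349 in KO cells. Its KO arrays differed by 1.48-fold and 1 of them lay within the WT range, at a log2 fold change of -0.28 ± 0.17. Without KO array 1 the value for Bcl2 was -0.39, and without KO array 2 that for Mcl1 was -0.56. Each of these values rests on a single KO array, so KO cells then have no spread of their own.

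Other probe sets of Bcl2 and Mcl1 gave a different picture from the brightest ones. Of 5 tested Bcl2 probe sets 2 were called lower in KO cells, and the larger of these changes went from 1249 and 2396 in WT to 482 and 728 in KO cells (log2 fold change -1.52 ± 0.30, limma adjusted p = 0.0100). The other 3 lay between -0.21 and -0.10. With all 5 averaged, Bcl2 was at -0.55 ± 0.13 (adjusted p = 0.0202). Of 6 tested Mcl1 probe sets 3 were called lower, at -0.57, -0.55 and -0.47, and a single probe set was higher, at 0.14 without a call. All 3 called Mcl1 probe sets carry the suffix that the manufacturer gives to probe sets open to cross-hybridisation. So does the other called Bcl2 probe set (-0.76 ± 0.21, limma adjusted p = 0.0406). An Mcl1 probe set without the suffix was at -0.51 ± 0.18 and was not called. Over the list, 100 probe sets named a measured member alone and 87 of them were tested. 23 members had more than 1 tested probe set, in 14 of them all pointed the same way, and in 0 were probe sets called in opposite directions (limma, also 0 at an unadjusted p of 0.05).

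**Figure D2:**
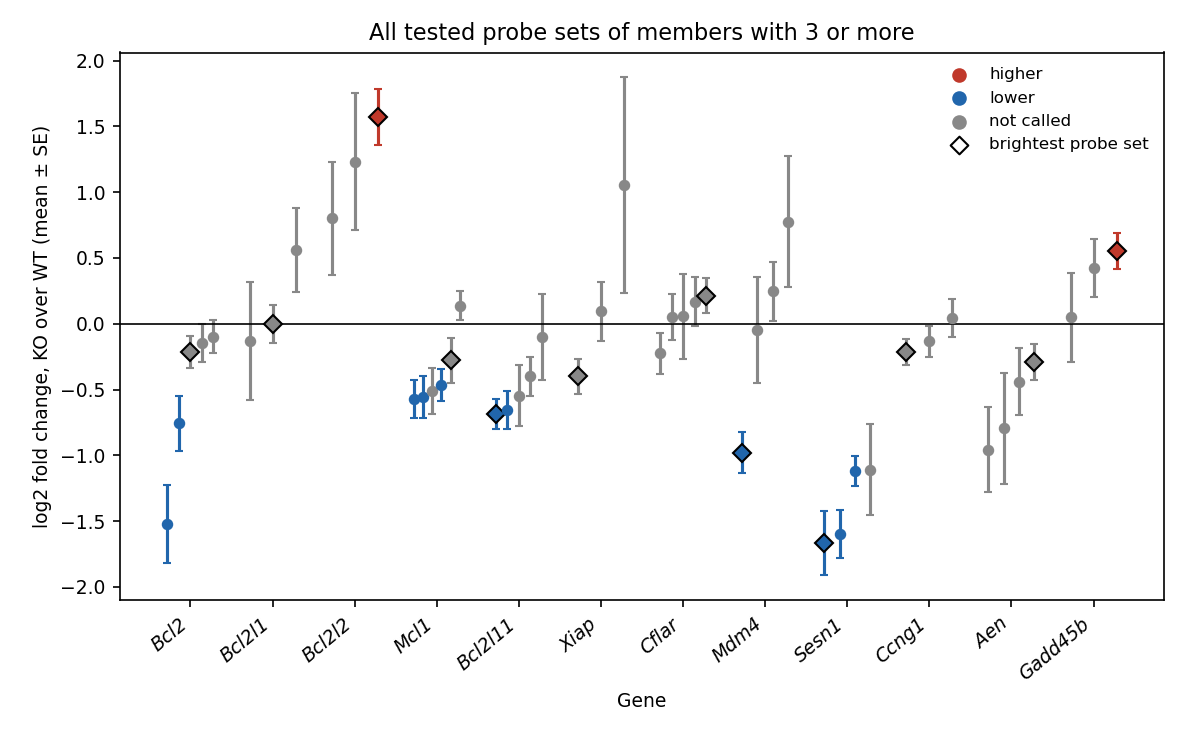
Log2 fold change of KO over WT for each tested probe set of the members that have at least 3, with bars for the SE and a black-edged diamond for the brightest probe set, which stands for the gene in the text. The 4 Sesn1 probe sets all lie at or below -1.11, whereas Mdm4 is called lower only by its brightest probe set and Bcl2 is called by 2 of its 5.

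The BH3-only genes split. Bcl2l11, which encodes Bim, and Bbc3, which encodes Puma, fell, while Pmaip1, which encodes Noxa, and Bmf rose. Bbc3 read 593 and 659 on the WT arrays and 293 and 226 on the KO arrays. The groups were separate, and WT cells had 2.34 times the signal of KO cells (log2 fold change -1.23 ± 0.19, limma adjusted p = 0.00352). Bcl2l11 read 2960.1 and 3106 in WT and 1978 and 1779 in KO cells, a narrow spread on either side and a 1.61-fold lower level in KO cells (adjusted p = 0.00447). Another bright probe set of Bcl2l11 was called as well (-0.65 ± 0.15), and the other 3 were negative without a call. Pmaip1 went from 222 and 257 to 805 and 601, with no overlap and a 2.80-fold rise (log2 fold change 1.48 ± 0.20, adjusted p = 0.00174). Bmf, a sensor tied to the cytoskeleton, was dim in WT cells at 82.8 and 138 and read 237 and 318 in KO cells (2.36-fold, adjusted p = 0.0228). Its call was lost without WT array 1 (adjusted p = 0.0834), without KO array 2 (adjusted p = 0.0862) and with no filter on dim probe sets (adjusted p = 0.0571). Bid, which caspase-8 cleaves into its active form, read 342 and 308 in WT and 194 and 209.9 in KO cells and missed the threshold (-0.65 ± 0.20, adjusted p = 0.0613). Bad, a BH3-only protein held inactive by Akt, was at 0.02 ± 0.18, and Bnip3, a mitophagy receptor induced in hypoxia, was at 0.15 ± 0.09. Of the pore-forming proteins, Bak1 was measured and lay at 0.19 ± 0.19 with overlapping groups.

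Caspase genes included the largest changes among the members. Casp4, which in the mouse encodes the inflammatory caspase-11, read 32.2 and 25.7 on the WT arrays and 491 and 305 on the KO arrays. Both WT signals were below the filter's threshold, a signal of 33.2, so the gene was tested only because its KO signals are high, and the 9.0-fold rise depends on the added 16 (log2 fold change 3.17 ± 0.31, limma adjusted p = 0.000369), and adding 1 or 64 in its place gave log2 fold changes of 3.70 and 2.29. Casp1, the caspase that matures interleukin-1 beta, went from 83.6 and 110.0 to 699.5 and 661. Its groups were far apart and the KO arrays close to each other, with a 6.21-fold rise (adjusted p = 0.000132). Casp6, an executioner caspase, rose from 1327 and 1242 to 2381 and 2839.5, or 2.01-fold (adjusted p = 0.00131). Casp2, an initiator caspase linked to genotoxic stress, fell from 3096 and 2922 to 1827 and 1782, or 1.66-fold (adjusted p = 0.00269). Casp8, the initiator caspase of death receptors, read 5093 and 5015 in WT and 5028 and 3801 in KO cells, so KO array 1 lay between the WT arrays, at -0.21 ± 0.14 (adjusted p = 0.338). Casp9, the caspase of the apoptosome, was at -0.41 ± 0.19 (adjusted p = 0.192). Thus 3 of 6 caspases rose, 1 fell and 2 did not pass. Without KO array 1 Casp8 was at -0.41, a value that rests on a single KO array.

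The genes that work around the caspases did not pass the test. Apaf1, the scaffold of the apoptosome, was at -0.11 ± 0.13. Diablo, which relieves the inhibition of caspases, was at -0.33 ± 0.18, and its WT and KO arrays overlapped. Of the inhibitor of apoptosis genes, Xiap was at -0.40 ± 0.13 (limma adjusted p = 0.0763), Birc2 at 0.20 ± 0.13 and Birc3 at -0.20 ± 0.10. Without KO array 2 Xiap was at -0.55, a value that rests on a single KO array. The death receptor adaptor gene Fadd was at 0.41 ± 0.21 and Cflar, a decoy of caspase-8, at 0.21 ± 0.13. By their brightest probe sets, 0 of these 7 genes passed in limma at an adjusted p of 0.05, and 1, Xiap, had an unadjusted p below 0.05. A dimmer Apaf1 probe set was at -0.84 ± 0.29 (limma unadjusted p = 0.0199, adjusted p = 0.0874). The dimmer tested probe sets of Xiap were at 1.05 ± 0.82 and 0.09 ± 0.22, without a call.

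**Figure D3:**
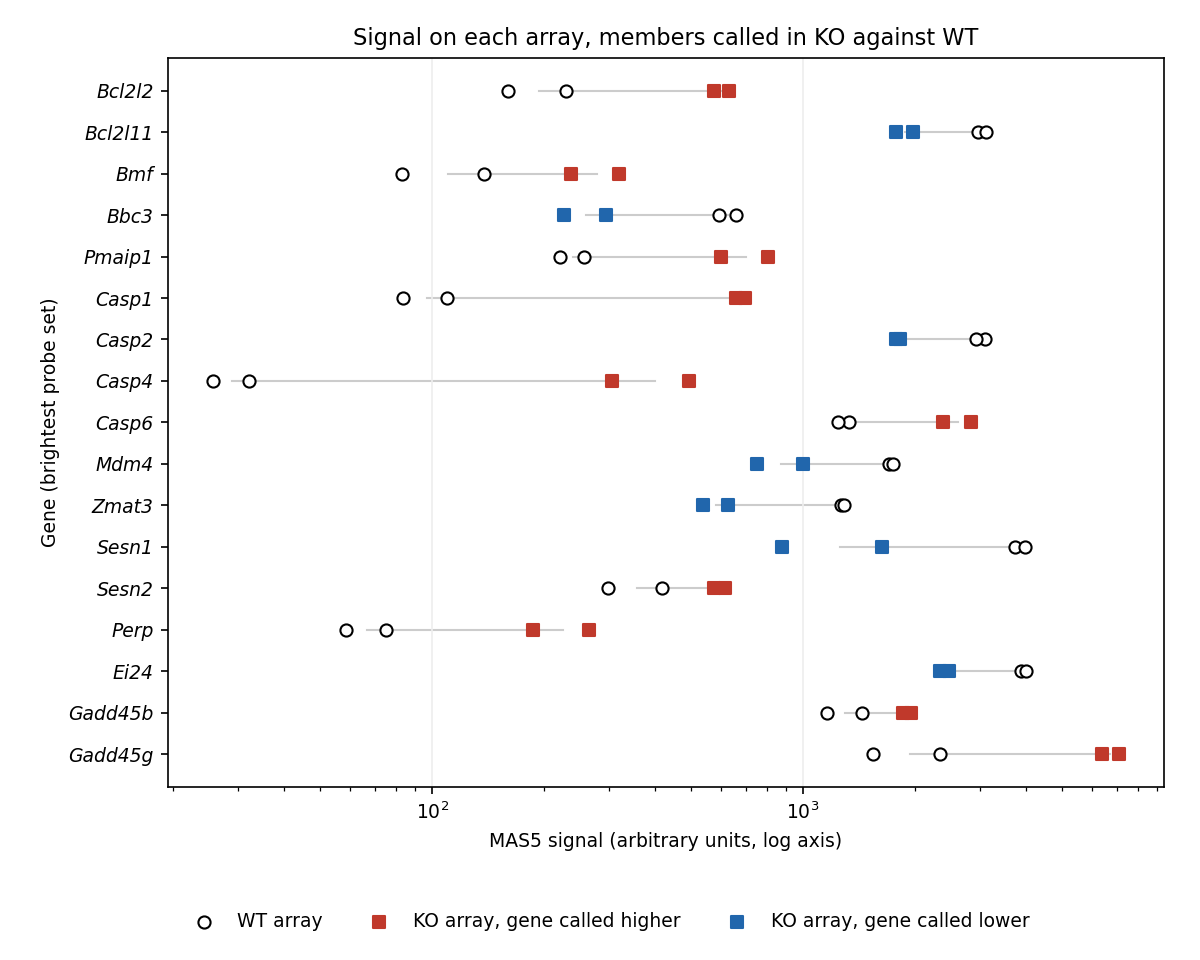
MAS5 signal (log axis) of the brightest probe set on each array for the 17 called members, with open circles for WT arrays, red squares for KO arrays of genes called higher and blue squares for KO arrays of genes called lower, and a grey line joining the group means. In all 17 genes the circles and squares are separate, and Casp4 starts from the lowest WT signals, 32.2 and 25.7. Positions of different genes on the axis are signals of different probe sets and are not comparable as levels.

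Of the inhibitors of p53, Mdm4 fell by its brightest probe set and Mdm2 did not pass. Mdm2, a ubiquitin ligase that is itself induced by p53, read 1050.2 and 1067 in WT and 1169.5 and 1257 in KO cells. The KO arrays were both above the WT arrays but only slightly, at 0.19 ± 0.13 (limma adjusted p = 0.341). Mdm4, a relative of Mdm2 that blocks the activation domain of p53, went from 1704 and 1743 to 749.9 and 998, a 1.97-fold lower signal in KO cells (adjusted p = 0.00397). The 3 other Mdm4 probe sets were dim, lay between -0.05 and 0.78, and did not pass. With all 4 averaged the value was -0.002 ± 0.208, so the fall of Mdm4 rests on 1 probe set.

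Genes induced by p53 and the sestrin genes moved in both directions. Of 10 measured, 2 rose, 3 fell and 5 did not pass. Sesn1, a sestrin that restrains mTORC1 and is a target of both p53 and Foxo factors, had the largest fall of all members. It read 3717 and 3978 in WT and 878 and 1635 in KO cells. The KO arrays differed from each other by 1.86-fold yet both lay far below the WT arrays, for a 3.18-fold lower level (log2 fold change -1.67 ± 0.24, limma adjusted p = 0.00252). The other 3 Sesn1 probe sets gave -1.60, -1.12 and -1.11, and the first 2 of these were called. Zmat3, an RNA-binding protein of the p53 response, fell from 1264 and 1291 to 538 and 628, or 2.17-fold (adjusted p = 0.00137). Ei24, an endoplasmic reticulum protein named for its induction by etoposide, fell from 3863 and 3983 to 2481 and 2343, or 1.62-fold (adjusted p = 0.00268). In both genes the arrays of a group were close together and the groups did not overlap.

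In the opposite direction, Perp, a membrane protein of desmosomes and of p53-dependent death, rose from 58.6 and 75.1 to 187 and 265, or 2.90-fold (limma adjusted p = 0.00906). Sesn2, the sestrin most tied to amino acid and unfolded protein stress, read 416 and 298 in WT and 615 and 574 in KO cells, a 1.66-fold rise (adjusted p = 0.0381). This call did not hold without WT array 2 (adjusted p = 0.201), without KO array 1 (adjusted p = 0.112), without KO array 2 (adjusted p = 0.0691) or without a filter on dim probe sets (adjusted p = 0.0686). Sesn3, a Foxo target, was at 0.03 ± 0.11 with overlapping groups. So the 3 sestrin genes gave a fall, a rise and no call. Phlda3, an inhibitor of Akt, was at -0.63 ± 0.20 (adjusted p = 0.0684), the exonuclease gene Aen at -0.29 ± 0.14, the cyclin G1 gene Ccng1 at -0.21 ± 0.10 and the autophagy gene Trp53inp1 at -0.06 ± 0.10.

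The Gadd45 genes differed among themselves. Gadd45g read 1545 and 2335 on the WT arrays and 7095 and 6380.3 on the KO arrays. The WT arrays differed by 1.51-fold and the KO arrays by 1.11-fold, and the groups were 3.52-fold apart (log2 fold change 1.82 ± 0.18, limma adjusted p = 0.00036). Gadd45b, the family member induced by TGF-beta and NF-kappaB, read 1157 and 1444 in WT and 1860.1 and 1950.4 in KO cells, a 1.47-fold rise (adjusted p = 0.0289). Its call was lost without WT array 1 (adjusted p = 0.170), KO array 1 (adjusted p = 0.0524) or KO array 2 (adjusted p = 0.0754), and with its 3 probe sets averaged it was at 0.34 ± 0.17. Gadd45a, the member induced by p53, was dim at 154 and 209 in WT and 199 and 143 in KO cells, with overlapping groups and a log2 fold change of -0.08 ± 0.27. The differences between the 3 genes were not tested.

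Sequence before the transcription start was set beside these changes for 36 of the 40 measured members, in RefSeq windows of build GRCm38.p6 from 250 bases before to 50 bases after each annotated start. The members not searched were Pmaip1, Perp, Zmat3 and Trp53inp1. The core GTAAACA is shared by the elements of forkhead proteins, Foxo factors among them, and does not single out any of these. It was found on either strand in a window of 5 of these members, or 13.9%. Of all genes in the table, 4.05% had it in a window (3.65% of all windows). Of the 5, Bcl2l11, Bbc3 and Sesn1 fell, Casp4 rose and Mdm2 did not pass. The match was in 3 of the 6 searched members that fell, 1 of the 8 that rose and 1 of the 22 not called. Because of this split the motif was picked for display out of 13 searched. The motifs were themselves chosen after the values were seen, so the split is not a test. For 4 of the 5 members the 250 bases before the start are shown, with the match in capitals (TGTTTAC where it lies on the other strand). For Sesn1, where the match begins at base 23 after the start, the 30 bases around it are shown.
Bcl2l11, chr2:128125788-128126037, plus strand: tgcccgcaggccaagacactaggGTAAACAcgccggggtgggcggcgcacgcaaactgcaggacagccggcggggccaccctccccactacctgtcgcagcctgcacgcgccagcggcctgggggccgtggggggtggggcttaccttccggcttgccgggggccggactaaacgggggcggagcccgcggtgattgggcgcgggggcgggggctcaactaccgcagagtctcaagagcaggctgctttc
Bbc3, chr7:16310011-16310260, plus strand: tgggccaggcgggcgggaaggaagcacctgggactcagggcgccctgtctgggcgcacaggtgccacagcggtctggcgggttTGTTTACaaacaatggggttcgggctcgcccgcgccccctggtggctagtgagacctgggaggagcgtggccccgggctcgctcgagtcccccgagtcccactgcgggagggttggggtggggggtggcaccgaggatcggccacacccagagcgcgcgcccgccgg
Sesn1, chr10:41810585-41810614, plus strand: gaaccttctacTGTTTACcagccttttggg
Casp4, chr9:5308599-5308848, plus strand: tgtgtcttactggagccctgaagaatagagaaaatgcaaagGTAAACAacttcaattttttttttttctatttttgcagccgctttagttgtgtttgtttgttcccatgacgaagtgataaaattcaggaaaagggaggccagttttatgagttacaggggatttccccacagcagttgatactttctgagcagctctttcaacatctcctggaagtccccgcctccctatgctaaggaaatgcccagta
Mdm2, chr10:117710759-117711008, minus strand: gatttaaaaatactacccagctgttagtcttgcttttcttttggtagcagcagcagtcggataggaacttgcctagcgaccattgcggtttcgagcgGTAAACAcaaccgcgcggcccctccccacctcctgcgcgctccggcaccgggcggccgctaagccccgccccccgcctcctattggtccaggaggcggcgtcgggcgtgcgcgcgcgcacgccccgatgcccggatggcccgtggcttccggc
The match begins 227 bases before the start in Bcl2l11, 167 in Bbc3, 209 in Casp4 and 153 in Mdm2. Bcl2l11 and Sesn1 have 2 annotated starts each and Bbc3 has 3, and in these genes the match lies in the window of 1 start only. Such a match is a string of letters and was not tested as a binding site. The p53 motif, searched by its name as a single decamer, was in a window of 22.2% of the 36 members and of 9.55% of all genes. Its 8 members were Aen, Birc2, Bmf, Ccng1, Ei24, Gadd45a, Mdm2 and Sesn1, of which Bmf rose, Ei24 and Sesn1 fell and 5 did not pass.

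Other genes of the same pathways also changed in both directions. Their lists were not picked for how the genes moved, although earlier results of these data were known when they were drawn up. Of 27 tested apoptosis genes outside the members 5 rose and 4 fell, or 33.3% called, against 20.3% of all tested genes. Fasl, the ligand of the death receptor Fas, rose from 346 and 445 to 1753 and 1854, or 4.45-fold (limma adjusted p = 9.04e-05), while Fas fell from 1699 and 2161 to 1390.4 and 1291 (-0.51 ± 0.14, adjusted p = 0.0438). Mlkl (2.08 ± 0.20) and Ripk3 (0.57 ± 0.13), the executor and the kinase of necroptosis, both rose, as did the kinase gene Dapk2 (0.90 ± 0.18). The inflammasome receptor gene Naip2 went from 22.9 and 17.6 in WT to 263 and 200.3 in KO cells. Its WT signals were dim and it passed the filter only through the KO arrays, so the size of its rise (2.76 ± 0.33) depends on the added 16. Pdcd4 (-0.49 ± 0.09), Siva1 (-0.63 ± 0.12) and Bcl2l13 (-0.55 ± 0.14) fell. The median of these 27 genes was 0.007.

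Of 32 tested genes of the p53 pathway outside the members 8 rose and 7 fell. This was a share of 46.9% called, against 20.3% of all tested genes, and their median log2 fold change was -0.18. Cdkn1a, the cell cycle inhibitor p21 and a direct p53 target, rose from 6820 and 8029 in WT to 12704 and 13522 in KO cells, or 1.77-fold (limma adjusted p = 0.00128). Fbxw7 (1.33 ± 0.12), a ubiquitin ligase subunit that is also a p53 target, Tnfaip8 (1.09 ± 0.11) and Cdkn2a (2.62 ± 0.42), the locus of p16 and Arf, rose too, the last from dim WT signals of 6.06 and 12.7. Cdkn2a and Dram1, another of the 8, passed the filter only through the KO arrays. The DNA damage recognition gene Ddb2 fell from 1324 and 1359.9 to 594 and 622, or 2.18-fold (adjusted p = 0.000903), and the antiproliferative gene Btg2 (-0.76 ± 0.11), the damage kinase gene Atm (-0.73 ± 0.17) and Ppm1d (-0.79 ± 0.19), the phosphatase that ends the p53 response, fell as well. Of 4 tested binding partners of Gadd45 proteins, the p38 kinase gene Mapk14 fell (-0.58 ± 0.11) and 3 did not pass.

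**Figure D4:**
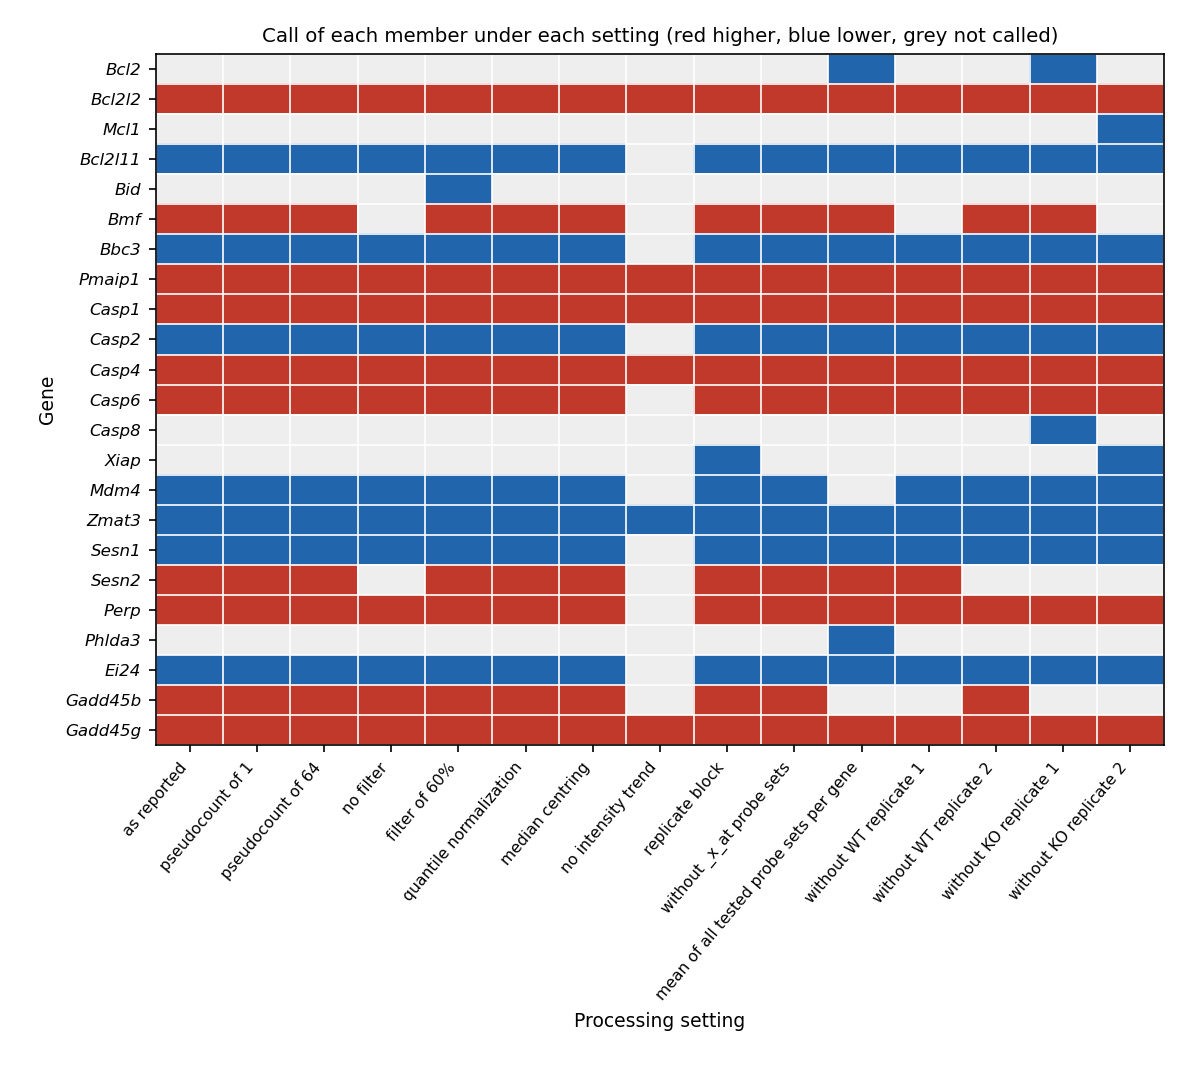
Call of each member in the reported fit and under 14 alternative settings, for the 23 members called at least once (red higher, blue lower and grey not called in KO cells). Rows for 6 members are coloured throughout, the column without an intensity trend holds 6 calls, and no member changes colour from red to blue.

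The 6 members called in the same direction in the reported fit and under all 14 alternatives were Bcl2l2, Pmaip1, Casp1, Casp4 and Gadd45g, which were higher in KO cells, and Zmat3, which was lower. The 11 other called members lost the call at least when the variance was fitted without its trend, which also lowered the share of all tested genes called to 5.19%. Bcl2l11, Bbc3, Casp2, Casp6, Sesn1, Perp and Ei24 lost it under that setting alone, at adjusted p-values between 0.0509 and 0.0845, and leaving out any single array kept them called. With either KO array left out, falls among the members outnumbered rises. Higher and lower calls over all genes were not counted under these fits, so whether this turn is particular to the members was not tested. Counts over all genes were open to single arrays, with 1646 genes called without WT array 1 and 1657 without WT array 2, against 2552.

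The labelled cell type was checked by its markers, and those of other cells moved with the genotype. T cell markers had summed signals of 59998 to 62258 in WT and 79584 to 85974 in KO cells, with Cd3d and Thy1 the brightest on every array. Cd4 was much dimmer, at 786 and 662 in WT and 517 and 631 in KO cells. The T cell markers did not move together. Of 8 tested, Cd3d, Cd3e, Cd3g and Thy1 rose, while Foxp3, which defines Treg cells, and Cd5 fell, and Cd4 (-0.33 ± 0.17) and Cd247 (0.14 ± 0.10) did not pass. Foxp3 read 2177 and 2033 in WT and 947 and 1101 in KO cells (-1.03 ± 0.13, limma adjusted p = 0.00123), and Cd5 was at -0.82 ± 0.09. Markers of mast cells and basophils were called higher for 8 of 10 tested genes, with summed signals of 922 to 1415 in WT and 30045 to 44287 in KO cells. However, 4 of the 8 (Cpa3, Fcer1a, Ms4a2 and Hdc) passed the filter only through the KO arrays. The mast cell genes Kit (0.32 ± 0.16), bright in WT cells at 616 and 713, and Tpsb2 (-0.19 ± 0.46), with overlapping groups, did not pass. Macrophage and monocyte markers were called higher for 5 of 7 tested genes, at sums of 523 to 776 and 1950.0 to 2289.8. The others, Csf1r (-0.11 ± 0.29) and Fcgr1 (-0.58 ± 0.35), were negative without a call, and Itgam was too dim to be tested. Neutrophil markers were called higher for 3 of 6 measured genes, at sums of 178 to 219.5 and 1693 to 3677, with S100a9 among the 3 passing the filter only through the KO arrays. Of 6 tested B cell and plasma cell markers, Ighm, Jchain and Sdc1 rose, while Cd79a, Cd79b and Ms4a1 had overlapping groups and did not pass. Pax5 was too dim to be tested. The sums were 2324 to 4327 in WT and 23847 to 33975 in KO cells, of which Ighm alone read 28036 and 20551 on the KO arrays. CD8 T cell markers rose for 2 of 2 tested genes (881 to 924 and 2196 to 2653). Of 5 measured eosinophil markers, Prg2 and Epx were bright on the KO arrays and passed the filter only through them, while Ccr3, Siglecf and Il5ra were too dim to be tested, and the summed signals were 27 to 88.8 in WT and 2064 to 5469 in KO cells. Of 5 measured NK cell markers, Klrd1 rose, Klrc1 passed the filter only through the KO arrays and 3 were too dim to be tested, at sums of 251 to 282 and 2037 to 2949. 0 of these signals were at 0. The inflammatory caspases Casp1 and Casp4 are also expressed by myeloid cells, and the part of other cells in the changes of the members was not tested. Array medians lay between 56.5 and 62.6, and the precision of every value is limited by there being only 4 arrays.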

How the data were processed

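Total RNA of 2 WT and 2 KO samples was hybridised to single-colour Affymetrix arrays. The values the authors deposited are linear intensity values made with MAS5, per the submitters' processing notes, and their mean after trimming 2% at each end is equal on all arrays, so total RNA per cell cannot be compared. Version and settings are not given in the sources used here. Of 45101 probe sets, 34958 name 1 gene, 932 several and 9211 none in the platform annotation. RefSeq's gene table for GRCm38.p6 held 34754 of the identifiers and changed 0 symbols. Without the 64 controls, signals were turned into log2(signal + 16), and the dimmest 40% by mean over all arrays were dropped. The KO and WT arrays were set against each other with limma 3.58.1 in R 4.3.3 (lmFit, eBayes with an intensity trend, two-sided) and Benjamini-Hochberg adjustment over 27022 probe sets. Residual degrees of freedom were 2 and prior ones 6.41, and an exact permutation test of 2 against 2 cannot give a p below 0.333. A fold change on this scale understates changes of dim genes. The members, the gene lists and the alternatives were chosen with earlier results of these data known. All members are named, of other pathway genes up to 4 called per list and direction with the smallest p, and Fas, Fasl and Cdkn1a. Ripk3 was named after its value was seen. Motifs were chosen after the values were seen.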

Additional observations from a re-analysis of the deposited data

How the results depend on the processing

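Of the 14 alternatives, the fit without the intensity trend changed the counts of calls most. It called 1183 probe sets, 651 genes and 6 members (5 higher, 1 lower), against 4608, 2552 and 17 (10 higher, 7 lower). Leaving out each array in turn gave 2786 to 4387 probe sets, 1646 to 2336 genes and 15 to 17 members, the lone array of a group being assumed to vary like the others. Of the 17 calls, 14 to 16 were kept. The split was 8 higher and 7 lower without WT array 1, 9 and 7 without WT array 2, 8 and 9 without KO array 1 (Bcl2 and Casp8 gained) and 7 and 9 without KO array 2 (Mcl1 and Xiap gained). With the array number as a replicate block, 18 members were called (10 higher, 8 lower), with Xiap added. The labels do not say that equal numbers mark a pairing, and the deviations of same-numbered arrays correlated at 0.01. Other scalings and pseudocounts changed no member's call. With no filter on dim probe sets Bmf and Sesn2 lost theirs, and with a filter of 60% Bid gained one (adjusted p = 0.0483). With all probe sets of a gene averaged, Xiap was at 0.25, Sesn3 at -0.063 and Trp53inp1 at 0.31, reversing values that were not called, and the calls of Mdm4 (-0.002) and Gadd45b (0.34) were lost, while Bcl2 and Phlda3 were called lower. Over single arrays left out, sign also changed for Bcl2l1 (-0.16 to 0.17), Sesn3 (-0.059 to 0.12), Trp53inp1 (-0.16 to 0.045), Gadd45a (-0.30 to 0.14), Mcl1 (-0.56 to 0.0056) and Bad (-0.24 to 0.28). The cause was not tested.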

Other observations

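In the same promoter windows 13 motifs were searched on both strands, among them those of factors active in T cells. The E-box CACGTG was in a window of 6 of 36 members with sequence (16.7%, against 8.09% of all genes), namely Gadd45g, Gadd45b and Casp1, which rose, Bbc3, which fell, and Aen and Bnip3, which did not pass. The kappaB motif, searched by name, was in 6 of 36 (16.7% against 9.5%), of which 2 rose and 1 fell. TGANTCA, the AP-1 element, was in 1 of 36 (2.78% against 8.97%), Mdm4, which fell, and TGACGTCA in 1 of 36 (2.78% against 2.03%), Birc2. The interferon response motif, searched as 2 copies of GAAA with any 2 bases between them, was in 1 of 36 (Cflar, 2.78% against 3.99%), and TTCNNGAA in 1 of 36 (2.78% against 9.6%). TTCNNNGAA (9.55% of all genes), 2 copies of CATG with any 6 bases between them (0.833%), and the CArG motif, searched by name (1.81%), were in 0 of 36. GAAAG and the hypoxia motif, searched by name, are common, in 61.1% and 63.9% of the members and 60.6% and 46.7% of all genes. The remaining 2 are the p53 motif and GTAAACA. No match bears on whether a factor binds there.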
